A study of Mus musculus with 11 samples.

Results

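The genes described here encode the proteins of the cytosolic ribosome and the factors that start and carry out translation. They were taken from the deposited table of the genotype comparison as every protein-coding gene whose name begins with Rpl or Rps followed by a number, p or a, with Eef1 or Eef2, or with Eif1 to Eif6, and the S6 kinases (Rps6k) and genes named as pseudogenes (-ps) were left out. This rule found 73 of the 4461 listed genes, namely 47 ribosomal proteins and 26 translation factors. Of the ribosomal proteins, 28 belong to the large 60S subunit and 19 to the small 40S subunit. By name, 5 of the translation factors are elongation factors and 21 are initiation factors. The latter include regulators such as the kinase Eif2ak4 and Eif4ebp1, which blocks a cap-binding protein. The GENCODE vM21 annotation holds 86 ribosomal protein genes and 68 translation factor genes under the same rule, so the remaining ones, which are outside the table, were not analysed here.

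RNA-Seq was carried out on cell lines derived from mammary tumors of female FVB/N mice that carry MMTV-NIC, a transgene in which the mammary tumor virus promoter drives activated ErbB2 together with Cre recombinase. All lines therefore share ErbB2 and Cre. In the 4 NIC/Cpt1aL/L lines (KO_1922, KO_1925, KO_2768 and KO_4258; genotype field: NIC with conditional Cpt1a KO) Cre deletes Cpt1a, which transfers long-chain fatty acids into mitochondria, and the 2 NIC/Cpt1a+/+ lines (WT_5257 and WT_8905) are wild type for it, so the comparison asks which transcripts differ when tumor cells lack Cpt1a. Each line had 2 libraries, apart from KO_2768 with 1, giving 11 libraries. The line was the replicate. Sample titles word the allele status the other way round and were not followed, and Cpt1a itself is outside the table, so the deletion was not checked here. Every gene in the table had passed the submitters' own test of this contrast, made with libraries as samples, so that the listed genes had to differ and counts among them describe how they differ, not how often translation genes differ.

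A ribosome is assembled from ribosomal RNA and the proteins of its large and small subunits, which are made in near-equal amounts. Initiation factors bring the small subunit to the capped end of an mRNA and to its start codon, and elongation factors deliver aminoacyl-tRNAs and move the ribosome along. Most mRNAs of ribosomal proteins and elongation factors begin with a cytosine followed by a run of pyrimidines, the 5′ terminal oligopyrimidine (TOP) tract, through which their translation follows growth signals passed on by mTORC1. Growing tumor cells are known for high output of this machinery.

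RefSeq promoter sequences (GRCm38.p6) were matched by symbol for 52 of the 73 members. The letters around the annotated start are shown because such a tract is the sequence feature these genes are known to share. In the 30 bases centred on the start, from 15 before to 15 from it onward, the capitals mark a C at the annotated start base itself that is followed directly by at least 4 letters, each C or T, on the sense strand.
Rps6, chr4:86857353-86857382, minus strand: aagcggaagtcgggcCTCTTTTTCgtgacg
Rps18, chr17:33955651-33955680, minus strand: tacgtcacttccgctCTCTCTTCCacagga
Rps10, chr17:27635230-27635259, minus strand: gcgccgcgcacgcccCTTCCTTTCCagcct
Rps15a, chr7:118116133-118116162, minus strand: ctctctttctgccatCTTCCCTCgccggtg
Rpl14, chr9:120571502-120571531, plus strand: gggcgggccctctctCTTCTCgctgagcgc
Eif3f, chr7:108934400-108934429, plus strand: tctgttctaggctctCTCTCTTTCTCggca
No such run lies at the start base in 37 of the 45 higher and in all 7 lower members with a sequence. Examples of both are shown because its absence is common in either direction, and 2 lower ones, Eif2ak4 and Eif2b2, have a run within 5 bases of the start. The capitals of Eif2ak4 begin 1 base before the start. The first pair, Rpl22 and Rps28, was higher in the Cpt1a-deficient lines and the remaining genes were lower.
Rpl22, chr4:152325711-152325740, plus strand: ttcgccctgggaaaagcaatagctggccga
Rps28, chr17:33824548-33824577, minus strand: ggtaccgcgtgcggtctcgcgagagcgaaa
Rpl36al, chr12:69184053-69184082, minus strand: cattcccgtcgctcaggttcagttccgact
Eif5, chr12:111538086-111538115, plus strand: gagatcgacgtgcatgcgagccaatgacaa
Eif4a1, chr11:69672409-69672438, minus strand: acaaagtaacgtcacgtcgagttgcagagc
Eif2ak4, chr2:118388602-118388631, plus strand: gactcgaggccccgCCCTCagttcggtcac
A run beginning exactly at the start was present for 7 of 35 ribosomal proteins with a sequence and 1 of 17 translation factors, against 3.01% of the 27025 genes in the promoter table. When the first C could lie up to 5 bases to either side, since annotated starts are not exact, it was found for 17 of 35 ribosomal proteins and 4 of 17 translation factors, against 21.2% of all genes. Among those ribosomal proteins the median log2 fold change between genotypes was 0.56 for the 17 with a run and 0.66 for the 18 without. A match is a description of these letters, and its absence says only that they are not in this window.

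Library totals ranged from 15199378 to 25386785 reads, with all 7 libraries of deficient lines deeper than the 4 of control lines. The listed genes took up 33.3% to 34.6% of the reads of a library. Levels are given as CPM, read counts per 1000000 of an effective library size built from the submitters' size factors, summed over the libraries of a line, and the lowest count of a member in any line was 297 reads. Duplicate libraries of a line differed by a median of 0.03 to 0.09 on the log2 scale over the members. Markers of other cell types moved with genotype and line. Of 12 fibroblast and mesenchyme markers 6 were listed, all higher, with a summed level of 69.1 to 1662 CPM in NIC/Cpt1aL/L lines against 1.78 to 3.60 CPM in NIC/Cpt1a+/+ lines, and Dcn and Thy1 had no read in either control line. Most of that sum was S100a4 in KO_1922 (160.4 CPM), KO_1925 (65.3 CPM) and KO_4258 (774.8 CPM) and Dcn in KO_2768 (1452 CPM). In KO_4258, Dcn, Pdgfrb, Col1a2 and Thy1 had no read, and only S100a4 lay above both controls in all 4 deficient lines. Csf1r, the only listed gene of 9 leukocyte markers, lay at 0.0823 to 309.9 CPM against 0.0305 to 0.416 CPM, with its highest value in KO_4258. None of 6 endothelial markers was listed, and Fabp4, the only listed gene of 5 adipocyte markers, was at most at 2.26 CPM. Of 15 mammary epithelial markers only Elf5 was listed, at 17.4 to 152.1 CPM in NIC/Cpt1aL/L lines and 287.4 and 300.6 CPM in NIC/Cpt1a+/+ lines, so the epithelial label could not be checked further. The part of these markers in the results was not tested, and in bulk RNA a change in the share of a cell type and a change of RNA within cells cannot be told apart.

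The listed ribosomal protein mRNAs were higher in Cpt1a-deficient lines almost without exception. They are 47 of 86 annotated genes and had all passed the submitters' test of this contrast. In the fit, 46 of 47 had a higher and 1, Rpl36al, a lower level with Cpt1a deleted, with a median log2 fold change of 0.63. All 19 proteins of the small subunit were higher (median 0.72, range 0.31 to 1.42), and 27 of 28 of the large subunit (median 0.60). Over all 4273 genes tested the median was 0.60 and 58.6% were higher, so the signed medians were close. Without regard to sign, the median log2 fold change was 0.63 for ribosomal proteins and 1.2 for all genes, so single ribosomal proteins changed less. Their direction was more uniform and their spread narrower. The standard deviation over genes was 0.31 on the log2 scale for ribosomal proteins and 2.87 for all genes. Ribosomal protein mRNAs were also far more abundant, with a median of 480 FPKM against 7.55 FPKM for all genes, and the part of abundance in the narrower spread was not tested. Translation factors were mixed, with 19 higher and 7 lower and a median of 0.53.

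**Figure D1:**
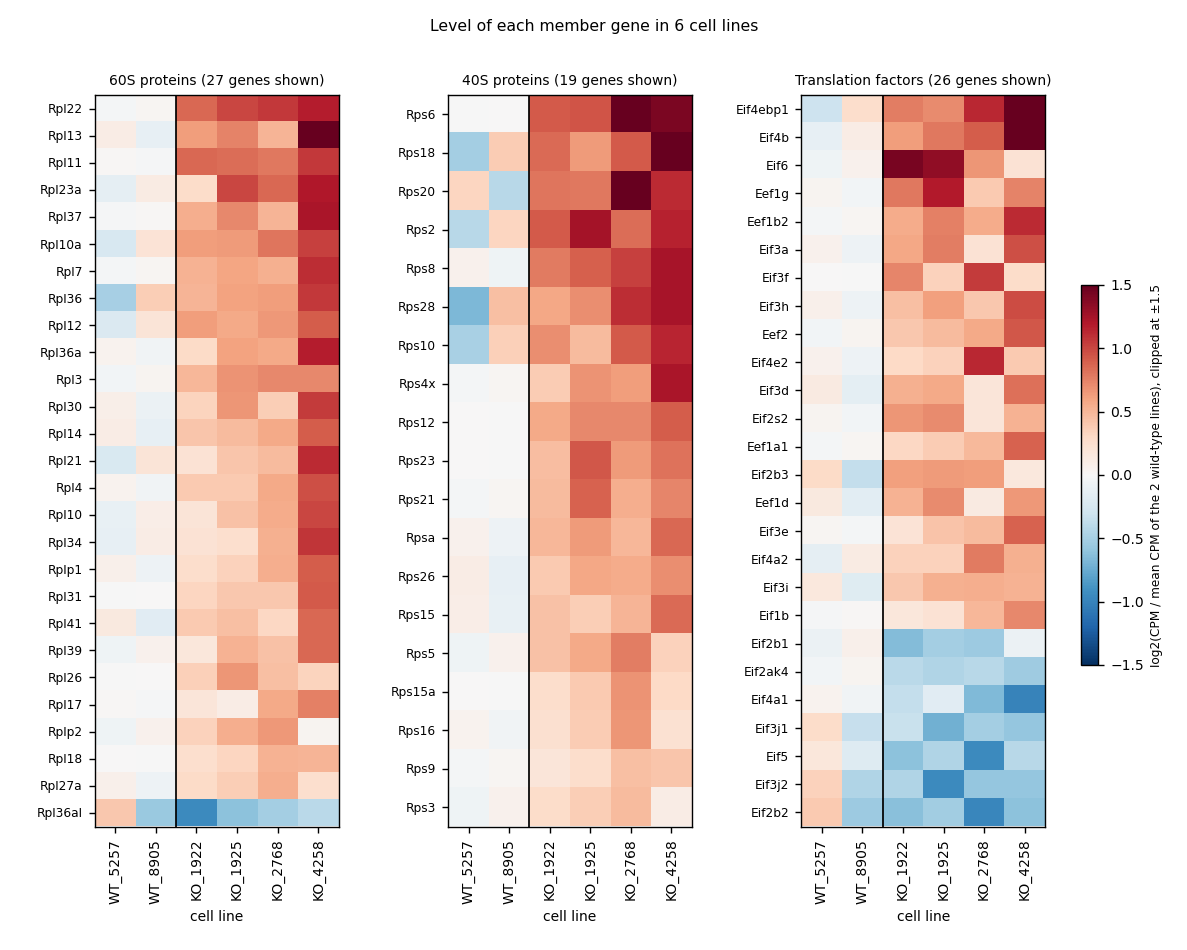
Heat map of 72 of the 73 members (rows, ordered by fitted fold change) in the 6 cell lines (columns). Colour gives log2 of the CPM of a line over the mean CPM of the 2 NIC/Cpt1a+/+ lines, clipped at ±1.5, and the vertical line separates genotypes. All 4 NIC/Cpt1aL/L columns are red for 45 of the 46 ribosomal proteins shown, whereas 7 of 26 translation factors and Rpl36al are blue.

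The groups did not overlap for 45 of 47 ribosomal proteins, whose level was higher in each of the 4 deficient lines than in either control, against 40.7% of all genes tested. Without overlap were 33 of 47 when scaled by TMM (30.1% of all genes) and 24 when scaled by the median of ratios (28.4%). The exceptions with the size factors were Rpl36al and Rplp2. For translation factors, 17 of 26 were higher without overlap and 3 (Eif2ak4, Eif4a1 and Eif5) were lower without overlap, against 34.7% of all genes for the lower direction. The edgeR quasi-likelihood test with Benjamini-Hochberg adjustment over 20000 tests called none of the 73 members, as it called 0% of all listed genes. The adjusted p-values of the members lay between 0.206 (Rpl22) and 0.820 (Eif2b3). An unadjusted p-value under 0.05 was reached by 25 ribosomal proteins and 9 translation factors with higher levels, where the share of all genes was 26.3%, and by 0 ribosomal proteins and 2 translation factors with lower levels, where it was 21.5%. Adjustment over the listed genes alone, which is too lenient because they were selected, left 1 ribosomal protein (Rpl22) and 0 translation factors, against 1.33%. DESeq2 on the same line sums called 12 ribosomal proteins as higher and 0 as lower. It called 1 translation factor (Eif2ak4) as lower and 0 as higher. Of all genes it called 15.3% as higher and 9% as lower, 24.3% in either direction. Leaving out a line changed the number of ribosomal proteins with higher levels and an unadjusted p-value under 0.05 from 25 to 7 without WT_5257, 12 without WT_8905, 15 without KO_1925, 19 without KO_2768, 23 without KO_1922 and 27 without KO_4258, and that of translation factors from 9 to 1, 0, 4, 10, 6 and 9 in the same order. The share of all genes moved as well, to 10.5%, 20.9%, 18.2%, 26%, 18% and 31.8% in that order. Without WT_8905, Rpl36al and 3 further translation factors were also lower without overlap (39.1% of all genes), and without KO_1922, 2 further translation factors (35.4%). Treating each library as a sample gave 35 ribosomal proteins and 14 translation factors with higher levels, against 35.1% of all genes (65.4% in either direction).

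Scaling moved these counts although no member changed direction. The median of all listed genes was 0.60 with the submitters' size factors and 0.56, 0.41 and 0.36 when scaled by library totals, by TMM on the listed genes and by the median of ratios on the listed genes. Relative to that shift, the median of the ribosomal proteins lay between 0.04 and 0.06 above all listed genes under each of these scalings, and that of the translation factors between -0.07 and -0.05 from them. Unadjusted p-values under 0.05 split as 25 higher and 0 lower ribosomal proteins with the size factors, 11 and 1 with TMM, and 7 and 1 with the median of ratios. For translation factors the same split was 9 and 2, 0 and 7, and 0 and 7. Of all genes, 26.3% were higher and 21.5% lower at that threshold with the size factors, 18.4% and 33.9% with TMM, and 17.8% and 35.5% with the median of ratios.

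The share of library reads on the 47 ribosomal proteins was 2.63% in KO_1922, 2.86% in KO_1925, 2.86% in KO_2768 and 3.57% in KO_4258, against 1.92% in WT_5257 and 1.96% in WT_8905. Every Cpt1a-deficient line was above both controls, the means being 2.98% ± 0.41 (SD, n = 4) and 1.94% ± 0.03 (SD, n = 2), a ratio of 1.53. The 5 elongation factors took 1.48% to 2.06% in NIC/Cpt1aL/L lines and 1.12% and 1.18% in NIC/Cpt1a+/+ lines. Initiation factors differed least, with 0.536% ± 0.052 (n = 4) against 0.453% ± 0.017 (n = 2). These shares are descriptions with no test, and their denominators hold all reads of a library. The reads summed are those of listed members only, which had to differ in this contrast. A higher summed share is therefore no separate evidence and does not measure all ribosomal protein mRNA.

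**Figure D2:**
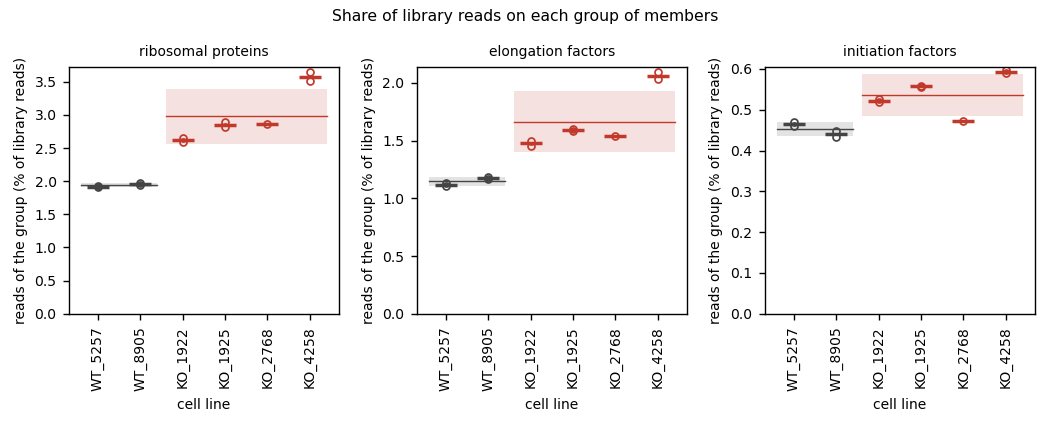
Percentage of library reads on ribosomal proteins, elongation factors and initiation factors, by cell line. Circles are libraries, short bars the line value, and the horizontal line with its band the mean ± SD over the lines of a genotype. The NIC/Cpt1aL/L lines lie above both NIC/Cpt1a+/+ lines in each panel, and KO_4258 is the highest. For initiation factors the margin is narrow, with 0.473% in KO_2768 against 0.465% in WT_5257.

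The largest differences were found among proteins of the small subunit. Rps6, the substrate of the S6 kinases (chr4:86854660-86857412 in mm10), was at 528, 538, 1183 and 743 CPM in KO_1922, KO_1925, KO_2768 and KO_4258 and at 278 and 279.6 CPM in WT_5257 and WT_8905. Both controls were almost equal and the lowest deficient line was well above them, with a log2 fold change of 1.42 ± 0.40 (SE; edgeR adjusted p = 0.341). Rps18, a protein of the head of the small subunit, stood at 427, 370.2, 448 and 1115 CPM against 167 and 308 CPM. Here KO_4258 was far above the other deficient lines, and the log2 fold change was 1.31 ± 0.58 (edgeR adjusted p = 0.522).

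Rps20, also of the head, was at 429, 427, 761 and 536 CPM against 308 and 184 CPM. The gap between the controls was about as wide as that from the higher control to the lowest deficient line, and the log2 fold change was 1.13 ± 0.36 (edgeR adjusted p = 0.384). Rps2, which lines the path by which mRNA enters, measured 467, 587, 442 and 549 CPM against 185 and 310 CPM (log2 fold change 1.05 ± 0.28, edgeR adjusted p = 0.328). A pseudogene named after it, Rps2-ps10, was listed at 525 to 694 CPM against 243 and 375 CPM, so that reads may be split between near-identical copies and the level of Rps2 is uncertain.

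In the large subunit, Rpl22, an RNA-binding protein, had the smallest error of the large differences. Its levels were 236, 261, 270.4 and 294 CPM against 127 and 132 CPM, tight within both genotypes, with a log2 fold change of 1.03 ± 0.16 (edgeR adjusted p = 0.206, the lowest of all members). Rpl11, which binds Mdm2 when ribosome assembly is disturbed, was similarly even at 382, 375, 363 and 438 CPM against 213 and 207 CPM.

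The smallest positive differences were carried by Rps3, Rps9, Rpl27a, Rps16, Rpl18 and Rplp2, with log2 fold changes of 0.31 to 0.41. All of them lie on chromosome 7. Rps3, which contacts mRNA at its entry site, was at 993, 1064, 1141 and 885 CPM against 785 and 860.3 CPM, so that KO_4258 lay just above WT_8905 (log2 fold change 0.31 ± 0.20, edgeR adjusted p = 0.802). For Rps9 the levels were 643, 680.4, 776 and 754 CPM against 556 and 577 CPM, and for Rps16 505, 555, 678 and 499 CPM against 443 and 411 CPM. In both the groups were separate by a small margin. Rpl27a lay at 338 to 416 CPM against 269 and 300.0 CPM, and Rpl18 at 561 to 676 CPM against 469 and 474 CPM. Rplp2, an acidic protein of the ribosomal stalk, was the exception among the 46, since KO_4258 with 265 CPM lay between WT_5257 with 246 and WT_8905 with 269 CPM, while the remaining deficient lines were at 327, 374 and 404 CPM.

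Compared per length, the most abundant ribosomal protein mRNAs were Rplp1, Rpl41, Rps26, Rps12, Rpl10 and Rpl4, with mean FPKM over the 6 lines of 1517, 1435, 1275, 1110, 1055 and 1026. The differences of these abundant mRNAs were moderate, with log2 fold changes of 0.52 to 0.73. Rplp1, the partner of Rplp2 in the stalk, had 697, 738, 849 and 1088 CPM against 613 and 549 CPM, and Rpl41, a very short basic protein, 1022, 1065, 965 and 1411 CPM against 863 and 691 CPM. Rps26, which lies at the mRNA exit, was at 570, 651, 642 and 705 CPM against 471 and 400.2 CPM. Rps12 showed 546, 609, 607 and 691 CPM against 370.0 and 367 CPM (log2 fold change 0.73 ± 0.18, edgeR adjusted p = 0.305). Rpl10, which joins late in 60S assembly, was at 848, 1004, 1097 and 1488 CPM against 689 and 798 CPM, and Rpl4 at 1438, 1435, 1614 and 2132 CPM against 1133 and 1052 CPM. In Rplp1, Rpl41, Rpl10 and Rpl4 alike, KO_4258 was the highest line.

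Rpl36al, on chromosome 12, was the only ribosomal protein with a lower fitted level. It measured 128, 161, 173 and 187 CPM in the deficient lines against 326 CPM in WT_5257 and 168 CPM in WT_8905. The groups overlapped, since WT_8905 lay among the deficient lines and WT_5257 alone was high (log2 fold change -0.61 ± 0.30, edgeR adjusted p = 0.579). Its relative Rpl36a on the X chromosome encodes a nearly identical protein and went the other way, with 284, 354, 347 and 527 CPM against 243 and 224 CPM and no overlap (log2 fold change 0.69 ± 0.28, edgeR adjusted p = 0.490). The ratio of Rpl36a to Rpl36al by FPKM was 3.15 to 4.43 in deficient lines and 1.17 and 2.10 in controls.

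All 5 elongation factors were higher in the fit. Eef1a1, which delivers aminoacyl-tRNA to the ribosome and was the most abundant member at a mean of 5340 FPKM, was at 9186, 9632, 10438 and 13710 CPM against 7250 and 7601 CPM (log2 fold change 0.53 ± 0.32, edgeR adjusted p = 0.739). Its groups were separate, and KO_4258 was well above the other lines. Eef2, which moves the ribosome by a codon, had 3722, 3929, 4178 and 5360 CPM against 2742 and 2898 CPM (log2 fold change 0.61 ± 0.27).

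The exchange factor that recharges Eef1a1 is built from Eef1b2, Eef1d and Eef1g. Eef1b2 was at 509, 585, 510 and 753 CPM against 337 and 353 CPM (log2 fold change 0.77 ± 0.23, edgeR adjusted p = 0.362), and Eef1g at 1018, 1344, 777 and 985 CPM against 607 and 573 CPM (log2 fold change 0.81 ± 0.27, edgeR adjusted p = 0.394). Both were separate between genotypes. Eef1d was not: it measured 210, 239, 160 and 228 CPM against 161 and 130.0 CPM, with KO_2768 just under WT_5257.

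The initiation factors were mixed within their complexes, with 6 higher and 2 lower subunits of eIF3, 1 and 2 of eIF2B, and 4 and 1 among the genes named Eif4. Of the eIF3 subunits, which hold the small subunit and the mRNA together, Eif3a, Eif3d, Eif3e, Eif3f, Eif3h and Eif3i were higher in all 4 deficient lines than in both controls, with log2 fold changes of 0.50 to 0.66. Eif3a, the scaffold subunit, was at 732, 832, 570 and 953 CPM against 512 and 466 CPM (log2 fold change 0.66 ± 0.26, edgeR adjusted p = 0.468). Eif3i was the most even, with 101, 111, 111 and 109 CPM against 85.3 and 67.2 CPM (log2 fold change 0.50 ± 0.17, edgeR adjusted p = 0.393).

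Among the remaining subunits with higher levels, Eif3h lay at 349 to 522 CPM against 251 and 278 CPM and Eif3e at 204 to 328 CPM against 175 and 181 CPM. Eif3f was at 321, 245, 399 and 233 CPM against 194 and 191 CPM, highest in KO_2768, and Eif3d at 96.6, 99.4, 75.6 and 118 CPM against 73.2 and 60.5 CPM, lowest in KO_2768. The loosely bound subunit eIF3j, encoded by Eif3j1 and Eif3j2, differed from these. Eif3j1 was at 44.8, 34.2, 39.6 and 37.7 CPM against 68.5 and 44.3 CPM, and Eif3j2 at 34.6, 24.2, 31.6 and 31.6 CPM against 59.9 and 34.4 CPM. In both genes WT_5257 was high and WT_8905 lay within or at the edge of the deficient lines, and since they are near-identical copies, the counts of each are uncertain.

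The eIF2 arm, which brings the initiator tRNA and is held back when its alpha subunit is phosphorylated, contained lower members. Eif2s2, the beta subunit of eIF2, was higher without overlap at 385, 398, 276 and 350.1 CPM against 249.8 and 237 CPM. Eif2ak4, the kinase GCN2 that senses uncharged tRNA, was lower and very even at 32.4, 31.4, 32.3 and 29.7 CPM against 42.0 and 44.2 CPM (log2 fold change -0.45 ± 0.17, edgeR adjusted p = 0.438). The subunits of eIF2B, the exchange factor of eIF2, did not move together.

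Eif2b1 measured 44.1, 48.7, 47.4 and 65.3 CPM against 65.1 and 73.1 CPM, with KO_4258 level with WT_5257. Eif2b2 measured 51.1, 54.9, 40.1 and 51.7 CPM against 103.9 and 54.1 CPM (log2 fold change -0.68 ± 0.29, the most negative of the members, edgeR adjusted p = 0.515), with WT_8905 among the deficient lines. Eif2b3 was on the higher side at 17.3, 17.7, 17.5 and 12.7 CPM against 13.8 and 8.83 CPM. For all 3 the groups overlapped. Eif5, which triggers GTP hydrolysis on eIF2 at the start codon, was lower without overlap at 369, 415, 291 and 425 CPM against 636 and 495 CPM (log2 fold change -0.59 ± 0.22, edgeR adjusted p = 0.454).

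Genes acting at the mRNA cap gave the largest difference of a translation factor. Eif4ebp1, which binds and blocks the cap-binding protein eIF4E until mTORC1 phosphorylates it, was at 118, 114, 152 and 385 CPM against 55.9 and 83.1 CPM. It was higher in each deficient line, but KO_4258 held more than the other lines by far, and the log2 fold change of 1.47 ± 0.62 was the least precise of the members (edgeR adjusted p = 0.498). Eif4b, the cofactor of the eIF4A helicase, was at 608, 680.2, 743 and 1210.2 CPM against 362 and 427 CPM (log2 fold change 1.04 ± 0.34, edgeR adjusted p = 0.393).

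The helicase itself is encoded by Eif4a1 and Eif4a2, which went in opposite directions. Eif4a1 was lower without overlap at 919, 1049, 744 and 587 CPM against 1217 and 1139 CPM (log2 fold change -0.51 ± 0.27, edgeR adjusted p = 0.624), and Eif4a2 was higher without overlap at 332, 333, 451 and 378 CPM against 238 and 286 CPM (log2 fold change 0.51 ± 0.21, edgeR adjusted p = 0.486). Their FPKM ratio, Eif4a2 over Eif4a1, was 0.371 to 0.744 in deficient lines and 0.228 and 0.294 in controls. Eif4e2, a cap-binding protein that represses translation, was at 53.3, 54.9, 94.4 and 56.7 CPM against 45.3 and 41.1 CPM, above both controls in each deficient line and highest in KO_2768.

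Eif6, which binds the 60S subunit and keeps it from joining prematurely, was at 325, 306, 192 and 141 CPM against 116 and 127 CPM. KO_1922 and KO_1925 were far above the controls, whereas KO_4258 was only slightly above them (log2 fold change 0.99 ± 0.39, edgeR adjusted p = 0.470). Eif1b, a relative of the start-codon selection factor eIF1, was at 26.3, 27.3, 33.2 and 38.6 CPM against 23.1 and 23.8 CPM, a small difference without overlap.

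**Figure D3:**
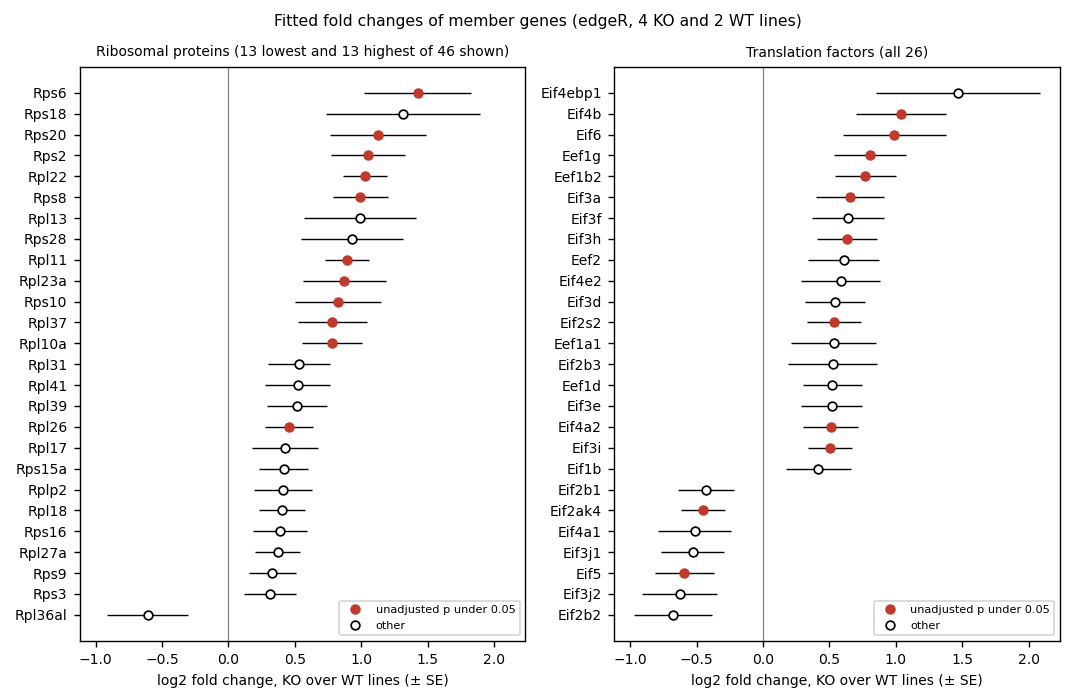
Fitted log2 fold changes of NIC/Cpt1aL/L over NIC/Cpt1a+/+ lines with standard errors (edgeR) for the 13 lowest and 13 highest of the 46 ribosomal proteins shown and for all 26 translation factors. Filled red points have an unadjusted p-value under 0.05 and open points do not. Ribosomal proteins lie to the right of 0 apart from Rpl36al, and translation factors fall on both sides.

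**Figure D4:**
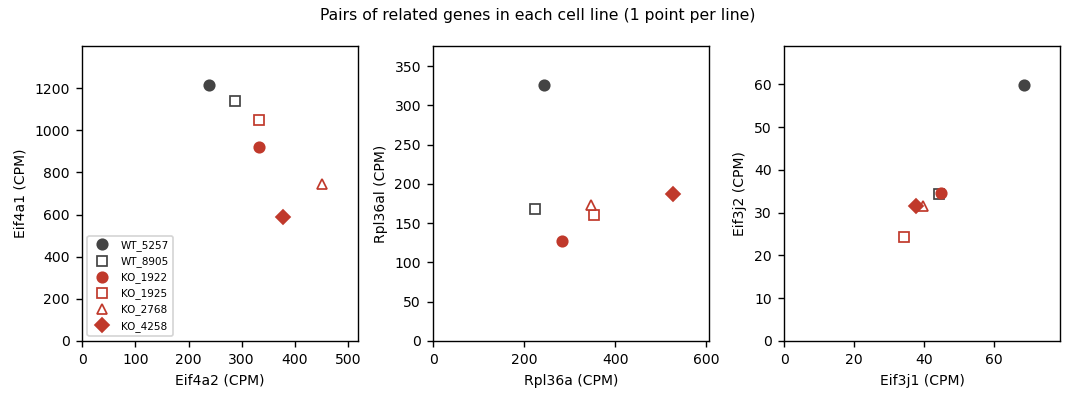
Levels in CPM of 3 pairs of related genes, with 1 point per cell line (grey: NIC/Cpt1a+/+, red: NIC/Cpt1aL/L). Eif4a1 is lower and Eif4a2 higher in each deficient line, Rpl36a separates the genotypes while Rpl36al separates WT_5257 from the other lines, and Eif3j1 and Eif3j2 both stand out in WT_5257.

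The deficient lines were not alike. KO_4258 held the highest level of the 6 lines for 31 of 47 ribosomal proteins, among them 22 of 28 of the large subunit, and KO_2768 for 11, KO_1925 for 4 and KO_1922 for 0, with WT_5257 highest for Rpl36al. The median level over the ribosomal proteins relative to the control mean was 0.42, 0.59, 0.56 and 0.92 on the log2 scale in KO_1922, KO_1925, KO_2768 and KO_4258. Without KO_4258 the counts by direction were unchanged at 46 and 1, and the median log2 fold change was 0.54. An unadjusted edgeR p-value under 0.05 was then reached by 27 higher ones. The share of all genes that were higher at that threshold moved from 26.3% to 31.8%. This line also had the highest Csf1r and S100a4 (774.8 CPM against 65.3 to 179 in the other deficient lines), and whether its other-lineage transcripts bear on the members was not tested.

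Levels of members followed those of their chromosome neighbours in some places. On chromosome 17, all 6 ribosomal proteins (Rps2, Rps10, Rps18, Rps28, Rpl10a and Rpl36) were lower in WT_5257 than in WT_8905, by a median of 0.86 on the log2 scale, and so were 151 of the 181 other listed genes there, by a median of 0.81. On chromosome 12 the 3 members (Rpl36al, Eif2b2 and Eif5) were lower in the deficient lines and higher in WT_5257 than in WT_8905, and only 14.2% of the 225 other listed genes of this chromosome were higher in the deficient lines, with a median log2 fold change of -0.85. All 7 members on chromosome 4 were higher, with a median of 1.03 for its 5 ribosomal proteins, where 85.0% of the 326 other listed genes were higher with a median of 0.77.

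Elsewhere the members parted from their neighbours. On chromosome 7 all 8 ribosomal proteins were higher, with a median of 0.40, although 38.2% of the 275 other listed genes were, with a median of -0.53. On chromosome 9 all 4 ribosomal proteins were higher with a median of 0.60, against 39.4% of the 226 other genes. On chromosome 8, Rpl13 and Eif4ebp1 were highest in KO_4258. Rpl13 was there at 2029 CPM against 873 to 1031 CPM in the other deficient lines and 665 and 562 CPM in the controls. Relative to the mean of the other deficient lines, KO_4258 was higher by 1.59 on the log2 scale for Eif4ebp1 and by a median of 0.23 for the 172 other listed genes of this chromosome. The part of these chromosome patterns in the genotype difference was not tested, and the chromosomes were picked after their values were seen.

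**Figure D5:**
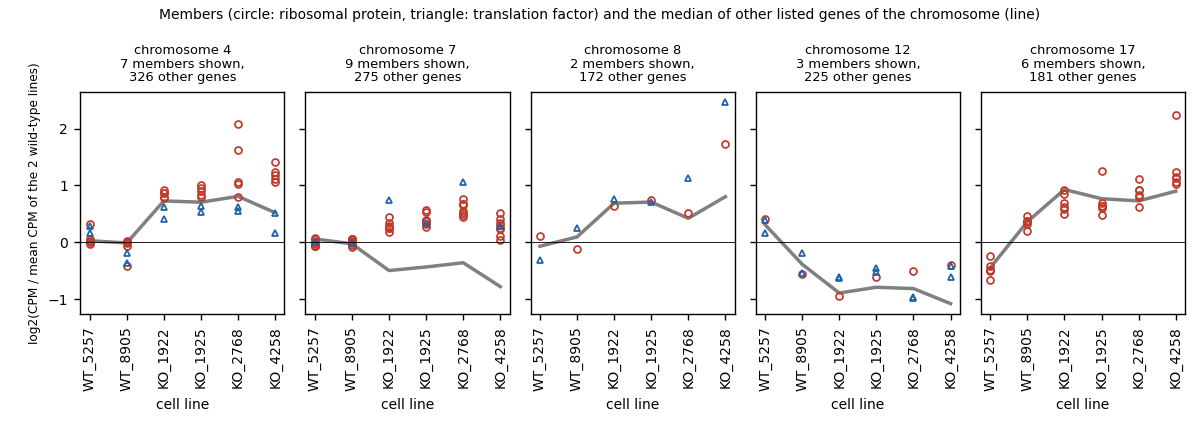
Log2 of the CPM of a line over the mean CPM of the 2 NIC/Cpt1a+/+ lines, for members on chromosomes 4, 7, 8, 12 and 17 (circles: ribosomal proteins, triangles: translation factors), with the median of the other listed genes of the chromosome as a grey line. On chromosome 17 members and line are lower in WT_5257 than in WT_8905, with Rps18 in KO_4258 (2.23) far above the line (0.90), and on chromosome 12 both lie below 0 in the deficient lines. The ribosomal proteins of chromosome 4 lie close to or above it in the deficient lines, and members lie above it in all deficient lines on chromosome 7.

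Some counts are less certain than others. Exons of 16 members overlap exons of a gene on the opposite strand in GENCODE vM21, and the overlap covers over 20% of the exon bases of Rpl23a, Eif3d, Rpl31 and Rpl30. Because the sources used here do not give the strand setting of the counting, reads of such pairs cannot be told apart. For 35 members the annotation holds pseudogenes named after them, 200 in all. The 13 listed genes that the rule left out as pseudogenes or relatives were all higher in the fit, with log2 fold changes of 0.44 (Rps16-ps2) to 1.24 (Rps6-ps4). The ratio of Rpl23a to the copy named Rpl23a-ps3 was 2.59 to 3.86 by CPM in deficient lines and 2.38 and 3.02 in controls.

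Related genes were listed in small part. Of 21 genes known for a TOP tract that are not named Rpl or Rps, 15 were listed, among them the 5 elongation factors above. All 15 were higher (58.6% of all genes tested), 13 of them without overlap (40.7% of all genes). Their median log2 fold change was 0.77, against 0.60 over all genes tested. The largest were Pabpc4, a poly(A)-binding protein (160 to 221 CPM against 77.3 and 87.3, log2 fold change 1.18 ± 0.19, edgeR adjusted p = 0.206), and the snoRNA host genes Gas5 (152 to 254 CPM against 74.7 and 95.5) and Snhg1 (46.9 to 69.4 CPM against 31.1 and 29.3). Fau and Gnb2l1 (Rack1), which belong to these 15 and supply further ribosomal proteins, were higher without overlap, with log2 fold changes of 0.74 and 0.50.

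Ribosome biogenesis factors were split, with 11 higher and 10 lower of the 21 listed out of 110. The share that was higher, 52.4%, was near the 58.6% of all genes tested. The largest higher ones were Npm1, a nucleolar chaperone (788 to 1829 CPM against 626 and 628), Polr1c and Utp11l, and the lowest were Rrp15, Las1l and Surf6 with log2 fold changes of -1.03, -0.84 and -0.75. Ubtf, the transcription factor of RNA polymerase I, was lower without overlap at 110 to 175 CPM against 250.3 and 204 CPM. Of the 15 listed proteins of the mitochondrial ribosome, 4 were higher and 11 lower, with a median log2 fold change of -0.58. Its difference from the cytosolic ribosome was not tested.

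Of 60 regulators of ribosome and factor synthesis, 13 were listed, 8 higher and 5 lower. Their share with higher levels, 61.5%, was near the 58.6% of all genes tested. The largest higher ones were Mycl, Igf1r (32.9, 43.0, 49.6 and 7.89 CPM against 9.36 and 8.74 CPM) and Rraga. Mycl was at 47.5 CPM in KO_2768 and 0.0228 to 6.01 CPM in the other deficient lines, against 0.15 and 0.62 CPM. Its level of 0.0228 CPM, in KO_4258, lay below both controls. The lowest were Pdcd4, an inhibitor of the eIF4A helicase (27.9, 28.4, 53.3 and 51.5 CPM against 88.6 and 84.1 CPM), Lamtor1, which anchors mTORC1 activation at the lysosome (log2 fold change -0.90 ± 0.25), and Max, the partner of Myc. Of 32 Atf4 targets of the integrated stress response 6 were listed, with the largest positive fold changes for Cbs, Gdf15 and Nupr1. Cbs was near the floor, at 0.159 to 0.775 CPM against 0 and 0.0594 CPM. Gdf15 was at 0.0456 to 6.33 CPM against 0.0305 and 0.684 CPM, with overlap. Nupr1 was at 166 to 435 CPM against 130 and 119 CPM. The amino acid transporter Slc7a5 (99.9 to 393 CPM against 1042 and 879 CPM) and Cebpb were lower. Of 44 aminoacyl-tRNA synthetase genes 4 were listed, Vars, Kars and Yars higher and Wars lower. Nemf was the only listed termination or rescue factor of 17 and lower, and the proliferation genes Ccnd1 and Pcna, 2 of 24, were lower.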

How the data were processed

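RNA-Seq was measured in 11 libraries of 6 tumor-derived cell lines, 4 NIC/Cpt1aL/L and 2 NIC/Cpt1a+/+, grouped by the genotype field of their labels. According to the methods and the labels, the authors removed low-quality reads, aligned with STAR to mm10 and counted reads per gene with HTSeq. The authors deposited whole-number read counts per gene, a normalized signal (each count over its library's size factor) and FPKM values, for 4461 genes that passed their threshold. The table also holds the fold changes and p-values of the authors' own comparison, which were not used. The strand setting of the counting is not given in the sources used here.

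Size factors (0.791 to 1.26) were recovered as count over signal and library totals from counts, gene lengths and FPKM. Effective library sizes are the size factors times 1 constant, and CPM is the count over that size times 1000000. Counts were summed by line and, after edgeR's low-count filter (4273 genes kept, all 73 members among them), tested with edgeR 4.0.16 (quasi-likelihood, 1.9 prior degrees of freedom) in R 4.3.3, with Benjamini-Hochberg adjustment counting 20000 tests, a round number near the number of mouse protein-coding genes, and a threshold of 0.05. The lines come from separate tumors, and p-values set the genotype difference against the spread within genotypes among these 6 lines. Standard errors of fold changes are the absolute log2 fold change over the square root of the F statistic of that test. A difference is called without overlap where all lines of a genotype lie on the same side of all lines of the other. DESeq2 1.42.0, other scalings, libraries as samples and each line left out were alternatives. Scripts were tested on simulated counts. Plots used matplotlib 3.10.9.

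The members and gene lists were chosen with earlier results of these data known. Values are given for ribosomal proteins with a negative fold change, the 6 with the highest FPKM, the 6 largest and 6 smallest positive fold changes and pairs of relatives, for all translation factors, and for the 3 extremes of each other list. Rpl11, Rpl13, Ubtf, Rps2-ps10, Rpl23a-ps3 and the genes named by chromosome were added after their values were seen. The totals count 1 member that is not reported here by name and is not plotted among the single genes. Duplicate libraries correlated at 0.994 to 0.996 and differed beyond counting noise (chi-square per gene 2.12 to 9.27), so each was kept as a library of its own. Deviations of same-numbered libraries from their line means correlated between lines at -0.05 to 0.07, so the library numbers do not pair the lines.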

Additional observations from a re-analysis of the deposited data

Results flagged for a closer look

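Among the 4 NIC/Cpt1aL/L lines, 1 line stood apart from the others by Dixon's criterion for 7 of the 73 members (9.59%), against 11.7% of all genes tested, where chance gives about 1 in 20 for independent values. In KO_4258 the level was high for Rpl13 (2029 CPM, other deficient lines 873 to 1031), Rps18 (1115 CPM, others 370.2 to 448), Rpl7 (1922 CPM, others 1281 to 1341), Rpl31 (623.5 CPM, others 409 to 433.5) and Eif4ebp1 (384.7 CPM, others 114 to 152), and low for Eif2b3 (12.66 CPM, others 17.3 to 17.7). In KO_2768, Eif4e2 was high (94.43 CPM, others 53.3 to 56.7). KO_4258 accounts for 6 of the 7, and it is also the line with the highest Csf1r and S100a4; the part of this in the values was not tested.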

How the results depend on the processing

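The counts by direction, 46 higher and 1 lower ribosomal proteins and 19 higher and 7 lower translation factors, were the same under every alternative run. The 0 calls of the main test became 12 ribosomal proteins and 1 translation factor with DESeq2 (24.3% of all genes, in either direction), 35 and 17 with every library as a sample (65.4%), and 28 and 14 with the replicate block added to the latter (52.2%), although the library numbers do not pair the lines. Adjustment over the listed genes gave 1 ribosomal protein. The median log2 fold change of the ribosomal proteins was 0.41 with the median of ratios, and that of the translation factors 0.37 with TMM, 0.30 with the median of ratios and 0.49 to 0.61 when 1 line was left out. Non-overlapping higher ribosomal proteins numbered 33 with TMM (30.1% of all genes). With the median of ratios, 24 ribosomal proteins and 10 translation factors were higher without overlap (28.4%). Lower translation factors without overlap numbered 7 with TMM (39.1% of all genes), 5 with library totals (36.4%) and 7 with median of ratios (39.2%). Leaving out 1 line gave 0 to 1 lower ribosomal proteins and 3 to 6 lower translation factors without overlap. Over all genes the share lower without overlap was then 35.4% to 39.1%. Each scaling shifts all listed genes together, and libraries as samples count duplicates as independent. Other causes were not tested.

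Only 6 lines, 2 of them controls, limit precision: a difference between WT_5257 and WT_8905 moves every fold change, and KO_2768 has 1 library. The table holds only genes selected on the same libraries, so absence of other members says nothing about them. Reads shared with pseudogene copies and opposite-strand genes could not be separated. The lowest count of a member in a line was 297 reads, and the part of depth in the calls was not tested.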
